A study of Homo sapiens with 12 samples.

Results

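The PDGF receptors PDGFRA and PDGFRB, the receptor KIT and the 4 PDGF ligands PDGFA, PDGFB, PDGFC and PDGFD were taken by symbol from a normalized expression table of SK-UT-1 cells, giving 7 genes of 22784 symbols. SK-UT-1 is an established human uterine leiomyosarcoma (uLMS) line, that is, a single line grown from a malignant smooth muscle tumor of the uterus. The cells were cultured for 48 h with the DMSO vehicle, with 5 µM JQ1 or with 5 µM I-BET 762. Both drugs block the acetyl-lysine pocket of the bromodomains of BET (bromodomain and extra-terminal) proteins, a family of chromatin readers. All 3 groups were therefore the same line at the same time, and the labels set them apart by the inhibitor alone. Strand-specific libraries of total RNA were sequenced, and 10 of the 12 labelled libraries had values, namely DMSO 13, 14 and 15, JQ1 17, 18, 19 and 20, and I-BET 762 21, 22 and 23. DMSO 16 and I-BET 762 24 were not analysed here.

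The PDGF receptors and KIT belong to the same class of receptor tyrosine kinases, with an extracellular part of immunoglobulin-like domains and a kinase domain split by an insert. A PDGF dimer brings a pair of receptor chains together, the chains phosphorylate each other, and docking proteins carry the signal to the RAS-MAPK, PI3K-AKT, phospholipase C and STAT routes. PDGFA and PDGFC dimers act mainly through PDGFRA, PDGFB dimers act through both receptors, PDGFD dimers act mainly through PDGFRB, and KIT answers to stem cell factor, the product of KITLG. PDGFC and PDGFD are secreted in a latent form that a protease has to cut. PDGFRB is a textbook receptor of pericytes and vascular smooth muscle, PDGFRA of fibroblast-like mesenchyme, and KIT of mast cells, melanocytes and interstitial cells of Cajal.

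A normalized count here is a read count divided by the library's scaling factor, as recovered from the table. Libraries held 35564586 to 39658989 reads on genes, and 3 reads, the limit that a count of 0 allows, corresponded to 2.73 to 3.30 normalized counts. A gene was tested when it had at least 10 normalized counts in at least 3 libraries, which 14839 symbols and 6 of the 7 genes reached. PDGFB did not. A gene was called changed when limma gave an adjusted p under 0.05 (Benjamini-Hochberg over all 14839 symbols) and the change exceeded 1.5-fold. As labelled, the libraries are separate samples, but no label ties them to separate cultures, so p-values measure the spread between libraries, which may be technical. In bulk RNA, fewer cells expressing a gene and less RNA of it per cell cannot be told apart.

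With JQ1, 4 of the 6 tested genes were called, where 36.1% of all tested symbols were. PDGFRB, PDGFC and PDGFD fell and PDGFA rose, where 22.8% of all tested symbols fell and 13.3% rose. With I-BET 762, 1 of the 6 was called, PDGFRB, which fell, where 26.9% of all tested symbols were called and 17.9% fell. Between the inhibitors, PDGFRB was again the 1 gene called, lower with JQ1, where 5.31% of all tested symbols were called and 3.59% were lower. The 6 genes are too few to set apart from these shares. Both comparisons with DMSO use the same 3 control libraries, so their values stand side by side and are not independent of each other.

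**Figure D1:**
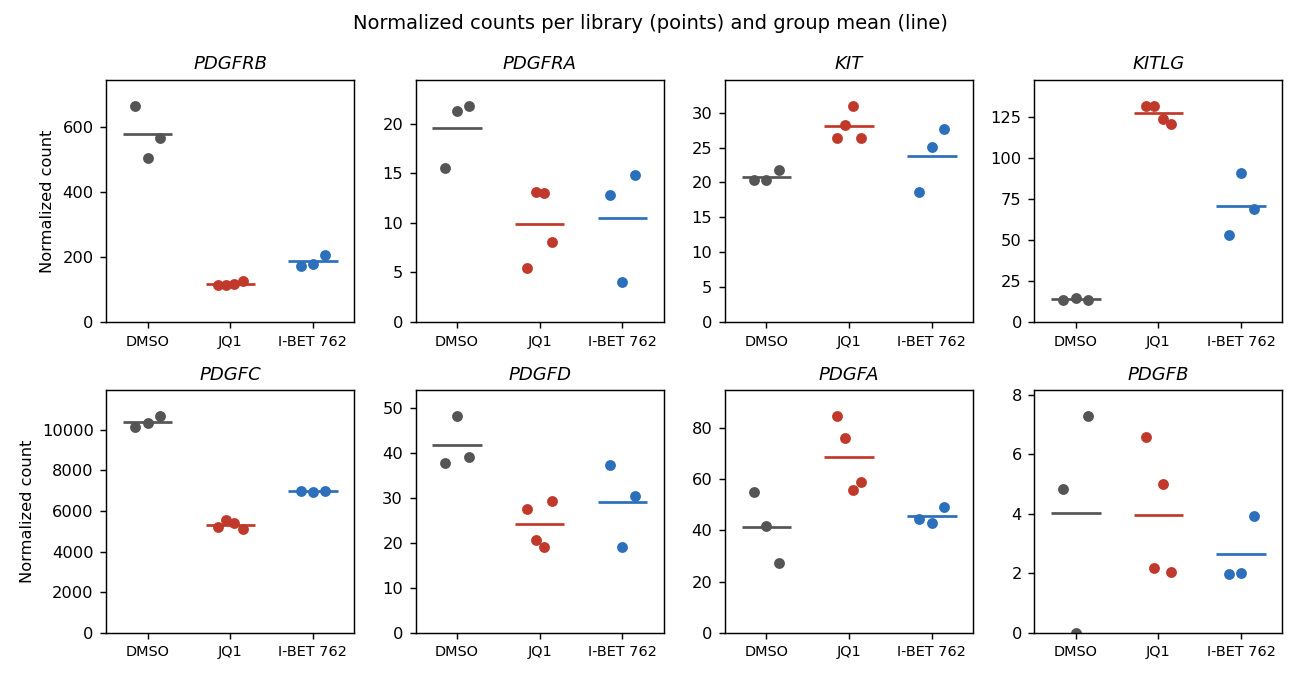
Normalized counts (y axis, linear from 0, with its own scale in each panel) of the 7 genes and of KITLG in each library, as points by group (x axis), with the group mean as a line. The DMSO libraries lie above all treated libraries for PDGFRB, PDGFRA, PDGFC and, by a small margin, PDGFD, and below them for KITLG.

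PDGFRB, the PDGF receptor beta chain (ENSG00000113721.14, GRCh38 chr5:150113839-150155872, minus strand), was the most abundant of the 3 receptors per kb of exon and fell the most of the 7 genes. It had 666, 505 and 566 normalized counts in DMSO 13, 14 and 15. It had 115, 114, 118 and 126 in JQ1 17, 18, 19 and 20. It had 174, 179 and 207 in I-BET 762 21, 22 and 23. The 3 groups did not overlap, with DMSO highest, I-BET 762 in the middle and JQ1 lowest. The fall was 4.83-fold with JQ1, a log2 difference of -2.27 with a standard error (SE) of 0.11 and an adjusted p of 3.243e-11 from limma. With I-BET 762 it was 3.08-fold, a log2 difference of -1.62 (SE 0.12, limma adjusted p = 9.236e-09). PDGFRB is one of the genes the study itself examined in these libraries, so its direction here is not independent evidence.

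PDGFRA, the PDGF receptor alpha chain (ENSG00000134853.12, chr4:54229280-54298245, plus strand), was weakly expressed. Its normalized counts were 15.5, 21.3 and 21.8 in DMSO, 5.49, 13.1, 13.0 and 8.11 in JQ1 and 12.8, 4.01 and 14.8 in I-BET 762. All treated libraries were below all DMSO libraries, but the treated libraries spread widely and rested on 4 to 15 reads each. The log2 difference was -0.97 with JQ1 (95% confidence interval -1.86 to -0.07, limma adjusted p = 0.05004) and -0.98 with I-BET 762 (-1.94 to -0.02, limma adjusted p = 0.07033). Neither passed the threshold, and 9 of 18 alternative settings called the JQ1 difference. PDGFRA also shares 1533 exonic bases, 16.1% of its exons, with ENSG00000282278, a protein-coding gene annotated on the same strand, and reads on those bases cannot be assigned to either by position.

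The proximal promoters of these receptors are printed because PDGFRB fell with both inhibitors while its homolog PDGFRA, with lower values in the treated libraries, was not called. Each window holds 220 bases, from 250 to 31 bases before the RefSeq start (GRCh38.p14, on the gene's strand, 5′ to 3′), and none of its bases is exonic in the annotation. Capitals mark CCAAT, the core of the CCAAT box, and GGGCGG, the core of the GC box, on either strand, so that CCGCCC is a GC box on the other strand. PDGFRA has a pair of RefSeq starts, and both windows are given.

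PDGFRB, chr5:150155876-150156095, minus strand: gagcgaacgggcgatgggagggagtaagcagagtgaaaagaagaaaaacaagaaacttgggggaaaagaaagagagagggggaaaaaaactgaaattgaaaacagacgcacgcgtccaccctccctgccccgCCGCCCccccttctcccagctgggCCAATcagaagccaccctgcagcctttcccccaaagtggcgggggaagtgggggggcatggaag
PDGFRA, upstream start, chr4:54229043-54229262, plus strand: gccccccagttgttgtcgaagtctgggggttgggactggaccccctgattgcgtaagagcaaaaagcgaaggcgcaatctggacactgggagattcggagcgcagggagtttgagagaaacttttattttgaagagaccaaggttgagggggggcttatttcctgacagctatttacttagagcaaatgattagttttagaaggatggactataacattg
PDGFRA, downstream start, chr4:54233710-54233929, plus strand: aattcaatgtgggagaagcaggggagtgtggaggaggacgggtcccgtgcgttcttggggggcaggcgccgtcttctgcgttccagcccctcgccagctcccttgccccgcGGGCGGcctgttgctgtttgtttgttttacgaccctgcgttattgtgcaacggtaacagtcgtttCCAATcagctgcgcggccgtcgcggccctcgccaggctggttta

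The PDGFRB window held 1 CCAAT, 94 bases before the start, and 1 GC box core on the other strand, 118 bases before it, counted from the first printed base of each match. The downstream PDGFRA window held the same pair, with CCAAT 74 and GGGCGG 139 bases before its start. The upstream PDGFRA window held neither, and none of the 3 windows held TATAAA. The windows had a GC content of 57.7% for PDGFRB, 62.3% for the downstream and 47.7% for the upstream PDGFRA start. Such matches are common, since among 35116 RefSeq promoter windows of the same length CCAAT occurred in 29.8%, GGGCGG in 38.9% and TATAAA in 8.08%, counting both strands. The motifs were chosen after the expression values were known and describe the sequence alone. For KIT and the ligands no promoter is printed.

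KIT, the receptor for stem cell factor (ENSG00000157404.17, chr4:54657267-54740783, plus strand), was also weakly expressed. It had 20.3, 20.3 and 21.8 normalized counts in DMSO, 26.4, 28.3, 31 and 26.4 in JQ1 and 18.7, 25.1 and 27.6 in I-BET 762. The JQ1 libraries were all above the DMSO libraries, whereas the I-BET 762 libraries fell on both sides of them. The log2 difference was 0.41 with JQ1 (95% confidence interval -0.07 to 0.88, limma adjusted p = 0.112) and 0.17 with I-BET 762 (-0.34 to 0.67, limma adjusted p = 0.567). Neither was called, and the first interval reaches from no difference to above 1.5-fold (0.585 on the log2 scale).

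KITLG, which encodes stem cell factor (ENSG00000049130.16, chr12:88492793-88580851, minus strand), rose strongly and is given because it is the ligand of KIT. It had 13.6, 14.8 and 13.7 normalized counts in DMSO, 132, 132, 124 and 121 in JQ1 and 53.1, 91.2 and 68.9 in I-BET 762. The groups were separate, in the order DMSO, I-BET 762 and JQ1, the reverse of the order for PDGFRB. The log2 difference was 3.09 with JQ1 (limma adjusted p = 3.583e-10), 2.23 with I-BET 762 (8.163e-08) and 0.86 between JQ1 and I-BET 762 (0.002622). KITLG kept its call in each of the 18 alternative settings that gave it a value, in all 3 comparisons.

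PDGFC, a latent ligand that acts mainly on PDGFRA (ENSG00000145431.11, chr4:156760454-156971799, minus strand), was the most abundant of the 7 genes, also per kb of exon. It had 10119, 10326.7 and 10660.1 normalized counts in DMSO 13, 14 and 15. It had 5206.2, 5548.9, 5400.4 and 5129.1 in JQ1 17, 18, 19 and 20. It had 6995.1, 6933.7 and 7006.1 in I-BET 762 21, 22 and 23. The groups were again separate in the order seen for PDGFRB, and the spread within each was small. PDGFC fell 1.95-fold with JQ1 (log2 difference -0.96, SE 0.04, limma adjusted p = 1.604e-11). With I-BET 762 it fell 1.49-fold (log2 difference -0.57, SE 0.05, limma adjusted p = 3.698e-08), so the test was passed and the fold threshold was missed by a small margin.

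PDGFD, the latent ligand of PDGFRB (ENSG00000170962.13, chr11:103907189-104164379, minus strand), was far less abundant, also per kb of exon. Its normalized counts were 37.8, 48.1 and 39.1 in DMSO, 27.5, 20.7, 19.0 and 29.4 in JQ1 and 37.4, 19.0 and 30.5 in I-BET 762. All treated libraries were below all DMSO libraries, although I-BET 762 21 came within 1 count of DMSO 13. PDGFD fell 1.71-fold with JQ1 (log2 difference -0.78, SE 0.26, limma adjusted p = 0.01257). With I-BET 762 the log2 difference was -0.55 (95% confidence interval -1.13 to 0.03, limma adjusted p = 0.09222). The JQ1 call was lost without DMSO 14 (log2 difference -0.67, limma adjusted p = 0.0607). PDGFD shares 193 exonic bases with DDI1 on the opposite strand.

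PDGFA, the ligand that acts through PDGFRA (ENSG00000197461.13, chr7:497258-520296, minus strand), was the 1 gene of the 7 that rose. It had 55.2, 41.6 and 27.3 normalized counts in DMSO, 84.6, 76.2, 56.0 and 58.8 in JQ1 and 44.3, 43.1 and 49.2 in I-BET 762. The JQ1 libraries were all above the DMSO libraries, by less than 1 count between JQ1 19 and DMSO 13, and the I-BET 762 libraries lay within the DMSO range. PDGFA rose 1.69-fold with JQ1 (log2 difference 0.76, SE 0.23, limma adjusted p = 0.006864). With I-BET 762 the log2 difference was 0.19 (95% confidence interval -0.32 to 0.70, limma adjusted p = 0.5175). The JQ1 call was lost without DMSO 15 (log2 difference 0.49, limma adjusted p = 0.0576) and when libraries were rescaled to equal totals (0.58, just under 1.5-fold, limma adjusted p = 0.0395), a scaling that shifts the median of all tested symbols by -0.18 in this comparison.

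PDGFB, the ligand of both receptors (ENSG00000100311.17, chr22:39223359-39244982, minus strand), was at the detection limit. Its reads were 5, 0 and 8 in DMSO, 6, 2, 5 and 2 in JQ1 and 2, 2 and 4 in I-BET 762, so a difference was not detectable at this depth.

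**Figure D2:**
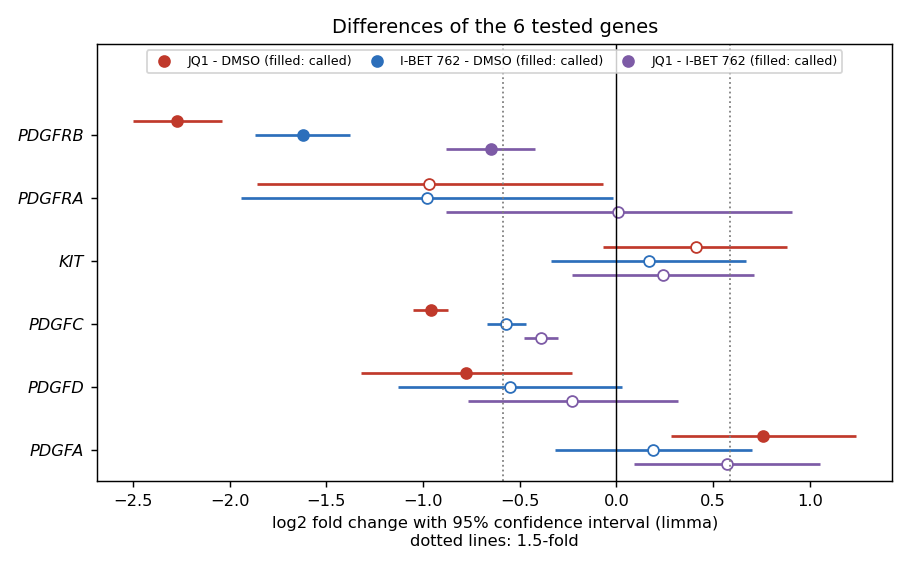
Log2 fold changes (x axis) of the 6 tested genes (y axis) for JQ1 against DMSO, I-BET 762 against DMSO and JQ1 against I-BET 762. Points are limma estimates, filled where called, lines are 95% confidence intervals and dotted lines mark 1.5-fold. The PDGFRB points lie at -2.27, -1.62 and -0.65, and the PDGFC interval is the narrowest.

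All 6 tested genes had JQ1 libraries that did not overlap with the DMSO libraries, 4 below and 2 above, where 68.4% of all tested symbols had none overlapping. With I-BET 762, 4 of the 6 did not overlap, all below DMSO, where 36.2% of all tested symbols lay below DMSO in this way. Groups that do not overlap were thus common among all tested symbols.

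To compare levels between genes, counts were divided by the length of the gene's merged exons in kb. In DMSO, PDGFC had 1728.7 ± 45.5 normalized counts per kb (SD, n = 3), PDGFRB 81.2 ± 11.4, PDGFD 9.77 ± 1.31 and PDGFA 9.02 ± 3.04. PDGFRA followed with 2.05 ± 0.367, KIT with 1.84 ± 0.0766 and PDGFB with 1.01 ± 0.928. PDGFC and PDGFRB stood clear of each other and of the rest, whereas the ranges of PDGFD and PDGFA overlapped, as did those of PDGFRA, KIT and PDGFB. PDGFC made up 98.71% to 99.06% of the summed level of the 4 ligands per kb in the DMSO libraries, 97.03% to 98.05% in the JQ1 libraries and 98.40% to 98.77% in the I-BET 762 libraries. PDGFRB made up 94.62% to 96.47% of the 3 receptors in DMSO, 80.14% to 84.78% in JQ1 and 87.92% to 90.52% in I-BET 762. Thus, in RNA per kb of merged exon, PDGFRB made up most of the receptor level and PDGFC most of the ligand level in every library.

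With JQ1 the order changed, as PDGFRB at 16.6 ± 0.727 (SD, n = 4) normalized counts per kb came to overlap with PDGFA at 15.0 ± 3.0. PDGFD had 5.66 ± 1.19, KIT 2.47 ± 0.194, PDGFRA 1.04 ± 0.393 and PDGFB 0.989 ± 0.559. KIT no longer overlapped with PDGFRA, whose range met that of PDGFB. With I-BET 762, PDGFRB at 26.2 ± 2.45 (SD, n = 3) stayed apart from PDGFA at 9.93 ± 0.707, and the ranges of KIT and PDGFRA did not overlap either. Dividing by the longest transcript in place of the merged exons put PDGFA above PDGFD in DMSO (15.1 against 10.3), KIT above PDGFRA (3.8 against 3.06) and, in JQ1, PDGFA above PDGFRB (25.1 against 20.8), so the order within these pairs depends on the length used.

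**Figure D3:**
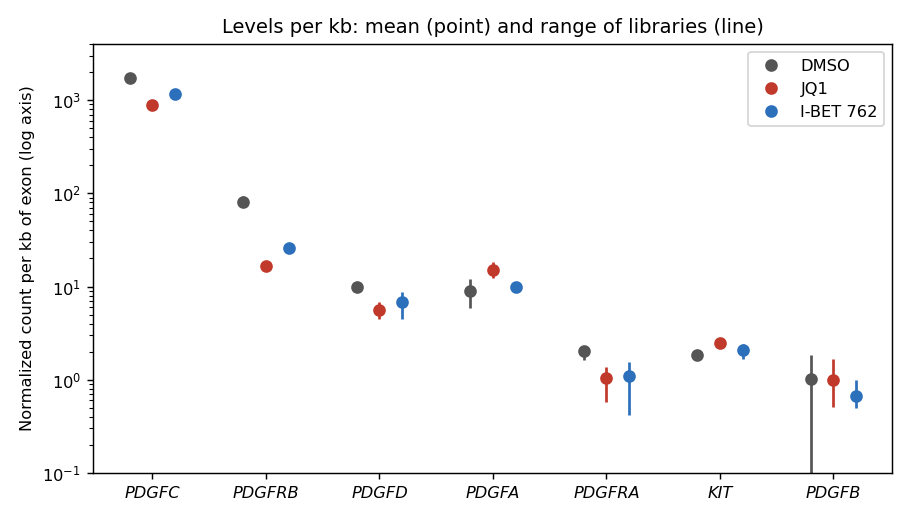
Levels of the 7 genes (x axis) as normalized counts per kb of merged exon (y axis, log axis), with the group mean as a point and the range of libraries as a line. The lowest PDGFB value in DMSO was 0 and runs off the log axis, and PDGFC lies far above all others in each group.

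JQ1 and I-BET 762 were given at the same dose and time, so their libraries can be compared directly at that dose. With a single dose of each, a difference between the compounds and a difference in effective dose cannot be told apart. Both are triazolodiazepines, and in JQ1 the diazepine ring is fused to a thiophene, in I-BET 762 to a benzene ring. PDGFRB was 1.57-fold lower with JQ1 than with I-BET 762 (log2 difference -0.65, 95% confidence interval -0.88 to -0.42, limma adjusted p = 0.0004545). Without I-BET 762 23 the log2 difference was -0.58 (limma adjusted p = 0.00512), which is just under 1.5-fold, so this library decides the call but not the test. PDGFC was 1.31-fold lower with JQ1 (log2 difference -0.39, limma adjusted p = 1.308e-05), under the fold threshold. Both genes were lower in every JQ1 library than in any I-BET 762 library. For PDGFA the log2 difference was 0.57 (95% confidence interval 0.09 to 1.05, limma adjusted p = 0.07441), with all JQ1 libraries above all I-BET 762 libraries. For KIT it was 0.24 (-0.23 to 0.71), for PDGFD -0.23 (-0.77 to 0.32) and for PDGFRA 0.01 (-0.88 to 0.91), with limma adjusted p of 0.4517, 0.5524 and 0.9847. These intervals reach past 1.5-fold on at least one side, and a difference of that size between the compounds was not detectable for these 3 genes.

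Around the receptors and ligands, 89 other genes of the pathway were listed by role, and 78 were tested. With JQ1, 24 of the 78 were called, 9 higher and 15 lower (30.8%, beside 36.1% of all tested symbols). With I-BET 762, 20 were called, 8 higher and 12 lower (25.6%, beside 26.9%). The median log2 difference of the 78 was 0.04 with JQ1 and -0.02 with I-BET 762, beside 0.01 and 0.00 over all tested symbols. Calls were therefore about as frequent as elsewhere. How they fell over the roles was not tested, since the lists hold only 1 to 27 tested genes each. The counts per role below stand beside 36.1% of all tested symbols called with JQ1 and 26.9% with I-BET 762. Of all tested symbols, 22.8% fell with JQ1 and 17.9% with I-BET 762.

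Among the 4 coreceptors and ligand-binding genes, 3 fell with JQ1 and 2 with I-BET 762. NRP1, a coreceptor of VEGF and PDGF signaling, had 920 to 985 normalized counts in DMSO, 118 to 169 in JQ1 and 194 to 226 in I-BET 762, log2 differences of -2.78 and -2.14. LRP1, an endocytic receptor that PDGFRB associates with, changed by -1.42 and -1.26 on the log2 scale. SPARC, a matrix protein that binds PDGF, changed by -0.61 with JQ1 and by -0.27 with I-BET 762, the latter not called.

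Of the 9 tested genes that process the ligands, 4 rose and 2 fell with JQ1, and 3 rose and 2 fell with I-BET 762. PCSK5, a proprotein convertase, rose from 31.9 to 52.3 normalized counts in DMSO to 262 to 296 in JQ1 and 142 to 153 in I-BET 762, log2 differences of 2.85 and 1.94. PLAU, the urokinase plasminogen activator that can cut latent PDGFD, rose by 1.39 and 1.03, and SERPINE2, an inhibitor of such proteases, by 2.31 and 1.72. The convertase PCSK6 had log2 differences of -1.16 and -1.45, both called. PLAT, the tissue plasminogen activator that cuts latent PDGFC, had log2 differences of 0.45 and 0.23 and stayed under 1.5-fold, a gene picked here for its substrate and after its values were seen.

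Adaptors and docking proteins gave 3 calls of 14 with JQ1, all lower, and none with I-BET 762, where rescaling to equal totals gave 3, to equal upper quartiles 1 and no fold threshold 9. These were GAB2 (log2 difference -1.22), GAB1 (-0.80) and GRB10 (-0.62). With I-BET 762 the same genes had log2 differences of -0.50, -0.50 and -0.57, each with a limma adjusted p under 0.05 and under 1.5-fold. GAB2, which links receptors to PI3K, was also lower with JQ1 than with I-BET 762 (log2 difference -0.71, limma adjusted p = 2.11e-05).

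Effector enzymes gave 5 calls of 27 with each inhibitor, 2 higher and 3 lower. The fallen genes were STAT5A, a transcription factor of the STAT route, with log2 differences of -2.77 and -2.09, MAPK3, which encodes ERK1, with -2.12 and -1.59, and the kinase SRC with -1.17 and -1.05. STAT5A had 839 to 928 normalized counts in DMSO, 116 to 138 in JQ1 and 184 to 230 in I-BET 762. The Src family kinase FYN rose by 1.58 and 1.29. The fifth call, JAK1, named after its values were seen, rose by 0.92 and 0.81.

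Negative regulators gave 4 calls of 18 with each inhibitor, 2 higher and 2 lower. PTPN6, the phosphatase SHP-1 that acts on KIT in blood cells, rose by 2.2 and 1.42 on the log2 scale from a low level of 5.46 to 15.7 normalized counts in DMSO. SOCS1 rose by 1.66 and 0.89, whereas the related feedback inhibitors SOCS2 (-1.73 and -1.40) and SOCS3 (-0.81 and -1.10) fell. The suppressors of cytokine signaling therefore did not move in one direction.

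Of the related receptor kinases CSF1R, FLT3, FLT1, KDR and FLT4, the first 4 were too low to be tested. FLT4, the VEGF receptor of lymphatic endothelium, had 586 to 624 normalized counts in DMSO, 398 to 440 in JQ1 and 377 to 403 in I-BET 762. Its log2 difference was -0.54 with JQ1 (limma adjusted p = 3.934e-06), under 1.5-fold and so not called, and -0.64 with I-BET 762, called. Between JQ1 and I-BET 762 the FLT4 log2 difference was 0.10 (limma adjusted p = 0.3088), and the libraries overlapped. Of the 4 tested ligands of these receptors 2 fell with both inhibitors, VEGFB (-1.54 and -1.53) and PGF (-0.62 and -0.72).

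**Figure D4:**
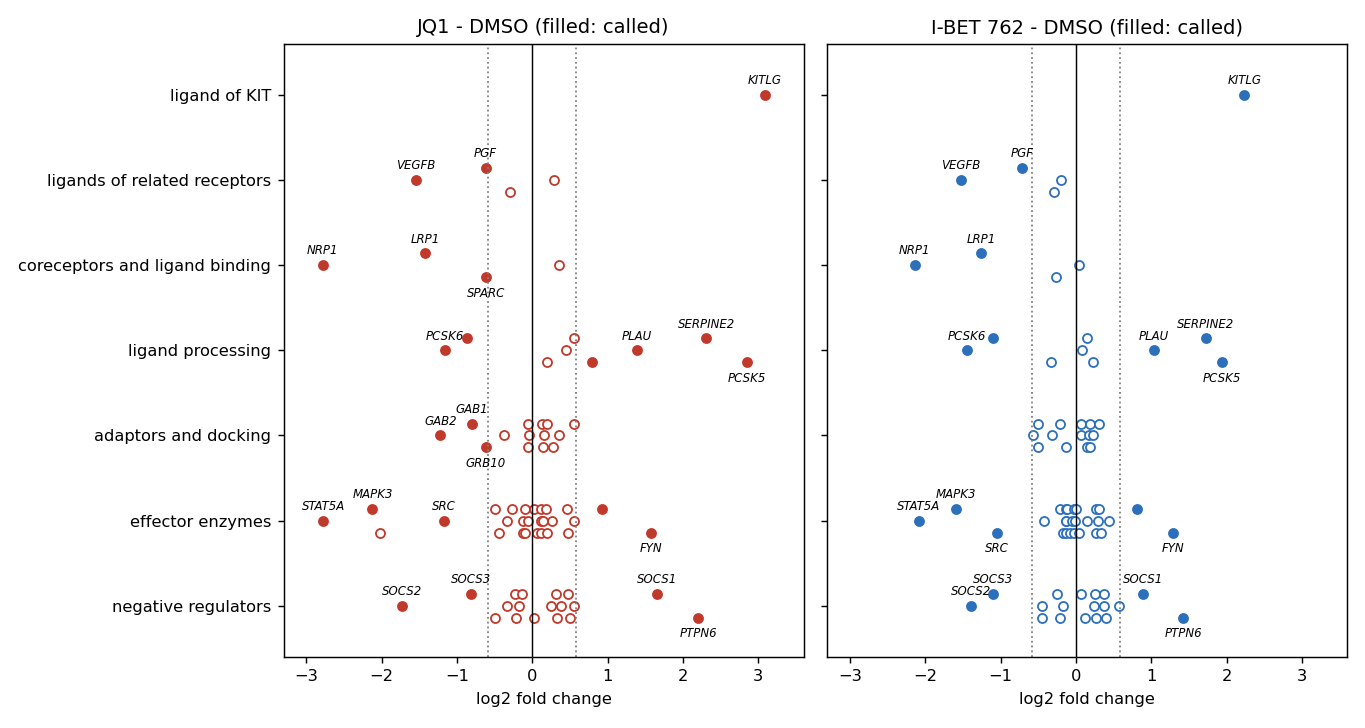
Log2 fold changes (x axis) of the tested genes of 7 lists (y axis) against DMSO, left for JQ1 and right for I-BET 762, with called genes filled and dotted lines at 1.5-fold. Labels name the called genes given in the text by the naming rule, and KITLG lies furthest to the right at 3.09 and 2.23.

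The chromosomal surroundings of the 7 genes were looked at because neighbors can share regulatory elements. Around PDGFRB, 9 protein-coding genes within 500 kb were tested, of which 4 fell with JQ1 and 3 with I-BET 762, where 22.8% and 17.9% of all tested symbols fell. ARSI, an arylsulfatase gene 183.4 kb away between the gene starts, changed by -2.76 and -1.89 on the log2 scale, SYNPO by -1.87 and -1.23 and PPARGC1B by -0.74 and -0.88. NDST1 changed by -0.90 with JQ1 and by -0.37 with I-BET 762, the latter not called. The nearest genes, CSF1R 42.5 kb and CDX1 10.9 kb away, had at most 2 reads in any library. The tested genes between those that fell, among them TCOF1, TIGD6 and RPS14, stayed under 1.5-fold, so the falls were not continuous along the region.

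PDGFRA and KIT lie 428.0 kb apart on chromosome 4 between their starts. The other tested neighbor of PDGFRA, CHIC2, had a log2 difference of 0.28 with JQ1 and was not called. KDR, on the far side of KIT, had no reads in DMSO and at most 1 in any treated library. Both tested neighbors of PDGFC were under 1.5-fold while PDGFC fell, with log2 differences with JQ1 of 0.22 for GLRB and -0.27 for GRIA2. Around PDGFA, 8 neighbors were tested, with 3 higher and 2 lower with JQ1 and 2 higher and 2 lower with I-BET 762. Around PDGFB, 18 were tested, with 1 higher and 8 lower with JQ1 and 1 higher and 6 lower with I-BET 762. The share of calls over all tested symbols was 36.1% for JQ1 and 26.9% for I-BET 762. No neighbor of PDGFD was in the table.

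**Figure D5:**
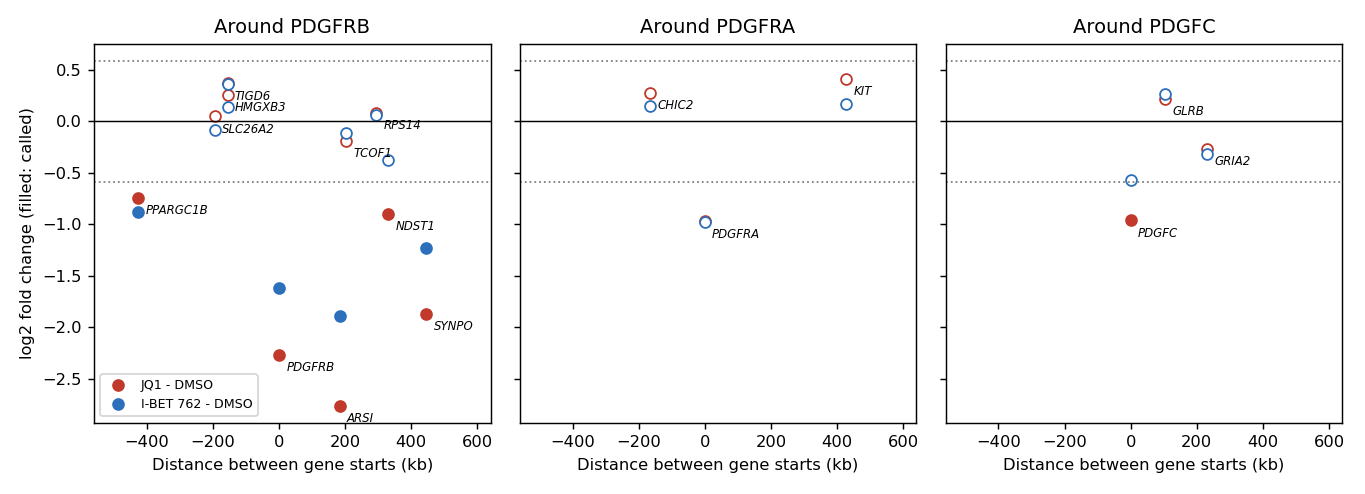
Log2 fold changes (y axis) of the tested genes within 500 kb of PDGFRB, PDGFRA and PDGFC against the distance between gene starts in kb (x axis), for JQ1 and I-BET 762 against DMSO, filled where called, with dotted lines at 1.5-fold. PDGFRB, ARSI and SYNPO lie lowest, NDST1 and PPARGC1B lie lower by less, the other genes around PDGFRB lie between the dotted lines, and PDGFRA is not filled.

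Profiles most like each gene's were found by the root mean square distance of the log2 values, each minus its DMSO mean, over all 10 libraries. The profiles nearest to PDGFRB were NHLRC3 at a distance of 0.10, PTPRU, a receptor tyrosine phosphatase gene, at 0.12 and DSP, which encodes desmoplakin, at 0.12. NHLRC3, for example, had 340 normalized counts in DMSO, 68.1 in JQ1 and 110 in I-BET 762, as group means. Nearest to PDGFC were TPM1, which encodes a tropomyosin, PKIG and ZNF792, each at 0.04, with 639 symbols within 0.2, against 47 for PDGFRB. More symbols thus lay within this fixed distance of PDGFC than of PDGFRB. Such a count depends on the size of a gene's change and on its spread between libraries. It was 1755 for KIT, which was not called, and 0 for PDGFA, PDGFD and PDGFRA. For KIT the nearest were STX16, SEC63 and TERF2 at 0.10 to 0.11, for PDGFA FTH1P10, CPLANE2 and PPATP1 at 0.21 to 0.23, for PDGFD CXCL2, SLC35E2A and KLHDC8B at 0.21 to 0.22, and for PDGFRA SP2-AS1, MLPH and TOLLIP-DT at 0.34 to 0.38. When group means replaced the libraries, NHLRC3 and ZNF792 alone stayed among the nearest 3 of their gene.

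The response of the cells to the drugs and the cell type label were checked with genes outside the family. HEXIM1, an inhibitor of the elongation factor P-TEFb that BET inhibitors are known to raise, rose by 1.53 with JQ1 and 1.05 with I-BET 762 on the log2 scale. MYC is given without a stated direction, so its values do not serve as a check of the response. MYC rose by 1.0 with JQ1 and had a log2 difference of 0.54 with I-BET 762 (limma adjusted p = 8.216e-07), under 1.5-fold. Of 10 smooth muscle markers 7 were tested and 6 fell with both inhibitors, where 22.8% and 17.9% of all tested symbols fell. SMTN had log2 differences of 0.19 and 0.20 and was not called. Among those that fell were DES (-4.63 and -3.16), TAGLN (-3.67 and -3.34), CNN1 (-3.58 and -2.70) and LMOD1 (-2.12 and -1.71). The 9 markers with values, SMTN included, summed to 20502.3 to 21136.8 normalized counts in DMSO. They summed to 10661.8 to 11270.3 in JQ1 and 11821.5 to 12374.1 in I-BET 762. CALD1 and ACTA2, with DMSO means of 9438.7 and 7070.8, weigh most in these sums. ACTG2 and MYOCD, defining genes of smooth muscle, had at most 2 reads in any library and MYH11 was not analysed here, so 7 of the 10 markers, ACTA2, CALD1 and SMTN among them, were high enough to be tested.

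The pericyte markers, which mark a cell type that PDGFRB defines, summed to 4250.0 to 5202.3 normalized counts in DMSO, 2601.3 to 2915.9 in JQ1 and 3519.8 to 3617.9 in I-BET 762. Of the 6, 4 were tested. CSPG4 fell (-1.31 and -0.67), as did NOTCH3 (-0.83 and -0.73), MCAM rose (0.83 and 1.09), and RGS5 stayed under 1.5-fold (-0.57 and -0.33). ABCC9 and KCNJ8 were at or near 0. The part of these marker changes in the fall of PDGFRB was not tested. The mast cell and leukocyte markers summed to at most 4.01 normalized counts in any library, with PTPRC, CPA3 and TPSAB1 at or near 0, so the KIT reads came with almost no reads of mast cell markers. Of 4 markers of interstitial cells of Cajal, which also carry KIT, 3 were tested and CD34 was too low. All 3 fell with JQ1 and 2 fell with I-BET 762, where 22.8% and 17.9% of all tested symbols fell. The 3 genes are too few to set apart from these shares, and KIT did not pass the test in either comparison. ANO1 had 32 to 43 reads in DMSO, 1 to 6 in JQ1 and 1 to 2 in I-BET 762, and ETV1 had log2 differences of -1.31 and -0.97, all called.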

How the data were processed

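The processing notes of the authors name FastQC 0.73 and Trimmomatic for the reads, HISAT2 2.2.1 and hg38 for alignment and featureCounts 2.0.3 for counting. Whether counting used strand is not given in the sources used here. The values the authors deposited are log2 of the DESeq2-normalized count plus 1, per gene symbol and library. Undoing the log2 gave whole reads for 99.49% to 99.55% of the values under 1000 reads, within 0.01 of a read, and so the scaling factors (0.9101 to 1.0989). Within groups, library pairs differed by more than counting error (chi-square per gene 2.77 to 22.12). The range was 2.77 to 7.32 in DMSO, 3.34 to 5.21 in I-BET 762 and 5.38 to 22.12 in JQ1. Pairs with JQ1 18 were the highest, at 20.57 to 22.12. The fit shares its estimate of the spread over the groups.

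The log2 values of the 10 libraries were fitted in one model with limma 3.58.1 (R 4.3.3) with an intensity trend. Tables were made with Python 3.11.15 and pandas 2.3.3. The procedure was tested on simulated data. Positions came from a Gencode annotation of GRCh38, and promoter sequences from RefSeq. The genes and lists were chosen with earlier results of these data known, so adjusted p-values over a list alone are not given. Named were the 7 genes, KITLG, HEXIM1, MYC, up to 4 called genes per list with the largest change, neighbors reaching within 500 kb of a gene's start and the 3 nearest profiles. Alternatives changed the pseudocount, filter, scaling, moderation, libraries in the fit, fold threshold and test, or left out 1 library.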

Additional observations from a re-analysis of the deposited data

Results flagged for a closer look

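In the 4 JQ1 libraries, 84 genes named or listed here were checked for a library far from the rest, by the gap to the nearest of the others as a share of the group's range against Dixon's critical value, and 3 stood out. Chance alone sets apart about 1 in 20 such groups. SERPINE2 had 662 normalized counts in JQ1 19 against 609 to 618 in the others (share 0.833), and all 4 were far above DMSO. EPCAM had 12.2 in JQ1 20 against 18.5 to 19.8 (share 0.831). CXCL2, a neighbor of PDGFD by profile, had 171 in JQ1 17 against 142 to 146 (share 0.864). None of the 7 PDGF and KIT genes stood out in this way. The groups of 3 libraries are too small for the rule.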

How the results depend on the processing

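Of 330 log2 differences of the 6 tested genes recomputed, 310 kept their call and 20 changed it. The sign changed in 7, none of them called. PDGFRB kept its call against DMSO in each setting that gave log2 differences (log2 differences -2.46 to -2.17 with JQ1 and -1.72 to -1.52 with I-BET 762), as did PDGFC with JQ1 (-1.15 to -0.94). PDGFRA ranged from -1.14 to -0.74 with JQ1 (called in 9 of 18 settings) and from -1.29 to -0.46 with I-BET 762 (called in 3).

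With JQ1, 4 genes were called, 2 with a mean filter of 100 normalized counts, which drops all but PDGFRB and PDGFC, 1 with a 2-fold threshold, and 3 to 5 when 1 library was left out. With I-BET 762, 1 was called, and 2 after rescaling to equal totals or upper quartiles or without a fold threshold (PDGFC added), and 2 with only the groups compared or with limma-voom on recovered reads (PDGFRA added). Leaving out 1 library gave 1 to 2, with PDGFC added without DMSO 13, PDGFD without I-BET 762 21 and PDGFRA without I-BET 762 23. Between the inhibitors, 1 was called, 2 without a fold threshold, 0 with a 2-fold threshold and 0 to 1 when 1 library was left out. The cause was not tested beyond the construction of each setting.

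Over all tested symbols, 5358, 3991 and 788 were called with JQ1, with I-BET 762 and between them. These became 3359, 2338 and 418 with the mean filter of 100, 10633, 9073 and 4047 without a fold threshold, and 2958, 2108 and 206 with a 2-fold threshold. Equal totals raised the share of lower calls from 63.1% to 77.5%, from 66.7% to 75.5% and from 67.5% to 82.0%. Of 480 recomputed list counts, 67 moved by more than 1.5 times. No paired analysis was possible because the replicate numbers are all different. Depth limits PDGFRA, KIT and PDGFB, which rest on few reads.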

Other observations

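Among the markers of other cell types, EMCN, which encodes the endothelial sialomucin endomucin, had 1063.8 to 1097.3 normalized counts in DMSO, 101 to 135 in JQ1 and 215 to 221 in I-BET 762, log2 differences of -3.26 and -2.31. Of the 6 endothelial markers, PECAM1, CDH5, VWF and TEK were too low to be tested in the same libraries. CLDN5, the other tested marker, had a log2 difference of -1.04 with JQ1, called although its JQ1 and DMSO libraries overlapped. With I-BET 762 the CLDN5 log2 difference was -0.28, not called. Of the epithelial markers, KRT19 had 740 to 742 normalized counts in DMSO, 202 to 274 in JQ1 and 185 to 202 in I-BET 762. CDH1 and ESRP1 were too low to be tested. All 4 tested epithelial markers fell with JQ1 and 3 fell with I-BET 762, where 22.8% and 17.9% of all tested symbols fell.

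Near PDGFB, which was at the detection limit, 4 of the 5 tested APOBEC3 cytidine deaminase genes fell with both inhibitors. Over all tested symbols, 22.8% fell with JQ1 and 17.9% with I-BET 762. The APOBEC3 genes were picked, with their values known, from the 18 tested neighbors of PDGFB. APOBEC3F had log2 differences of -0.43 and -0.49, under 1.5-fold. The log2 differences were -1.24 and -1.10 for APOBEC3G, -1.23 and -0.94 for APOBEC3B, -1.07 and -0.88 for APOBEC3C, and -0.93 and -0.99 for APOBEC3D. These genes are close paralogs, so reads may be split between them. MGAT3, on the other side of PDGFB, had means of 49.7 normalized counts in DMSO, 2.37 in JQ1 and 4.3 in I-BET 762, and NPTXR rose by 1.28 and 1.29.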
